A study of Rattus norvegicus with 132 samples.

Results

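The subunits of oxidative phosphorylation were followed through 132 regions of interest (ROIs) of rat kidney, measured with the GeoMx spatial profiler. Members were all rows of the deposited table whose symbol starts with Ndufa, Ndufb, Ndufc, Ndufs, Ndufv, Sdh, Uqcr, Cox4 to Cox8 or Atp5, without the Ndufaf and Sdhaf assembly factors. The rule took 59 of 9271 genes: 24 of complex I, 3 of complex II, 8 of complex III, 12 of complex IV and 12 of complex V. It used no measured value. Complex I was represented by members that include Ndufa3, Ndufa4, Ndufa5, Ndufa6, Ndufa7, Ndufa8, Ndufa9, Ndufa13, Ndufab1, Ndufb2, Ndufb3, Ndufb4, Ndufb5, Ndufb7, Ndufb8, Ndufb10, Ndufb11, Ndufc2, Ndufs1, Ndufs4, Ndufs6, Ndufs7 and Ndufs8. Complex II was represented by Sdha, Sdhb and Sdhd, and complex III by Uqcr10, Uqcr11, Uqcrb, Uqcrc1, Uqcrc2, Uqcrfs1, Uqcrh and Uqcrq. Complex IV was represented by Cox4i1, Cox5a, Cox6a1, Cox6a2, Cox6b1, Cox7a1, Cox7a2, Cox7a2l, Cox7b, Cox7c, Cox8a and Cox8c, and complex V by Atp5a1, Atp5b, Atp5c1, Atp5e, Atp5g1, Atp5g2, Atp5g3, Atp5h, Atp5j2, Atp5k, Atp5l and Atp5mpl. Ndufa4 is counted with complex I here because of its symbol, although its protein is now assigned to complex IV.

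Complexes I and II pass electrons from NADH and succinate to ubiquinone, complex III passes them to cytochrome c, and complex IV passes them to oxygen. Complexes I, III and IV pump protons across the inner mitochondrial membrane, and complex V, the ATP synthase, uses the gradient to make ATP. Reabsorbing segments of the nephron, above all the proximal tubule and the thick ascending limb of the loop of Henle, are rich in mitochondria, while the glomerulus is a filter with few of them.

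Paraffin sections came from rats labelled Sham, RM, HS and RM-HS, with 3 animals in each of the 4 groups, in a series on kidney injury after trauma. RM and HS are not spelled out in the labels, which give no strain, age or time after injury. In each group ROIs were drawn by hand in cortex, at the corticomedullary junction, in glomeruli and in medulla, and a probe set designed for mouse transcripts was hybridised to the rat tissue. RM had 9, 8, 9 and 9 ROIs in these areas, RM-HS had 9, 8, 6 and 9, HS had 9, 9, 5 and 6, and Sham had 9 in each. Well names place RM, RM-HS and 6 Sham ROIs of each area on plate C, and HS and 3 Sham ROIs of each area on plate E. A single RM glomerular ROI lay on plate A and did not enter the fit. Each injury was compared with the Sham of its own plate. Wells were grouped by their names into 12 runs, 3 for each group, called here Sham 1, Sham 2 and so on. A run held neighbouring wells, except RM-HS 3, whose medullary wells were separated from its others by those of Sham 1. Neighbouring wells of 1 group fell into separate runs where the set of areas began again. Sham 1 and Sham 2 lay on plate C and Sham 3 on plate E. Which animal an ROI came from is not labelled. Some ROIs of a group share an animal, and p-values over ROIs are too small.

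Promoter sequences were taken from RefSeq (GRCr8). All 59 members matched the rat gene table, 48 by symbol and 11 by synonym, on 19 chromosomes, and 53 had a promoter window of 300 bases, from 250 before to 50 after the gene's start. The following 250 bases before the start belong to 5 members on which the comparisons turn: Atp5b, the catalytic beta subunit of ATP synthase, at chr7:1099808-1100057 (plus strand), Cox8a, a small subunit of cytochrome c oxidase, at chr1:213833624-213833873 (minus strand), Sdhb, the iron-sulfur subunit of succinate dehydrogenase, at chr5:158547684-158547933 (plus strand), Cox7b, another small oxidase subunit, at chrX:75148786-75149035 (plus strand), and Atp5k, subunit e of ATP synthase, at chr14:1464610-1464859 (plus strand). They are written 5′ to 3′ along the gene, with matches to any of 6 searched motifs in capitals.
Atp5b: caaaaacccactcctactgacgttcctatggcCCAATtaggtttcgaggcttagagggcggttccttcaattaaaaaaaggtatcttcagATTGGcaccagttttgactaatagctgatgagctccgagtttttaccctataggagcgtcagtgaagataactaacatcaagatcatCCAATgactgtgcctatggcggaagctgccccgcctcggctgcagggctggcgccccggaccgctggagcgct
Cox8a: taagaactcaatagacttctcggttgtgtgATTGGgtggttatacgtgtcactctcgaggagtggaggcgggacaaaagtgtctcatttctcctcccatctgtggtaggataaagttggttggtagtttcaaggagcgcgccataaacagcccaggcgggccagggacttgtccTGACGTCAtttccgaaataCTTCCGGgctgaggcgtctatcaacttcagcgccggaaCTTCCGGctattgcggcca
Sdhb: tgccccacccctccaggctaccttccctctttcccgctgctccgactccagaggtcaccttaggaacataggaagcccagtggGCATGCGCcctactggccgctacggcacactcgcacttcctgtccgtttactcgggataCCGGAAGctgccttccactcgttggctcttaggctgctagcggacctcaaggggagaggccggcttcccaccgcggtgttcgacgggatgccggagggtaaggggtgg
Cox7b: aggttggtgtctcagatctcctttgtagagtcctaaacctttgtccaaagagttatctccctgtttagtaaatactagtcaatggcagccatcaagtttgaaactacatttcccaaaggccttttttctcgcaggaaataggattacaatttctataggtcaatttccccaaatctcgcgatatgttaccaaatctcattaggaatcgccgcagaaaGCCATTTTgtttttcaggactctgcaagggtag
Atp5k: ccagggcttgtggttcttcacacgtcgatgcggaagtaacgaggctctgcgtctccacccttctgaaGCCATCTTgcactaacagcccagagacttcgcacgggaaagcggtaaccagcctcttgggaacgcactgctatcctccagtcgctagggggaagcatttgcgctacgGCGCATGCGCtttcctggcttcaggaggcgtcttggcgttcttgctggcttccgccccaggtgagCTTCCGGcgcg
The letters searched on both strands were CCGGAAG (ETS factors such as GABP), GCATGCGC (the core of the NRF1 site), AANATGGC (YY1), TNAAGGTCA (estrogen-related receptors), CCAAT (the CCAAT box) and TGACGTCA (the cyclic AMP response element). In the windows of 300 bases, the ETS letters occurred in 30.2% of the 53 member windows and in 8.75% of all 33469 windows. The YY1 letters occurred in 43.4% against 6.96%, the NRF1 letters in 13.2% against 2.47%, the receptor letters in 5.66% against 1.2% and the cyclic AMP letters in 5.66% against 1.83%. The CCAAT box occurred in 34% of member windows and 37.5% of all. Matches of different motifs did not overlap in any member window, and 9 member windows held no match. The Cox8a stretch holds a CCAAT box, a pair of ETS matches and a cyclic AMP match, Sdhb an NRF1 and an ETS match, Cox7b a YY1 match, Atp5k a YY1 match, overlapping NRF1 matches and an ETS match, and Atp5b only CCAAT boxes. These are matches of letters and no evidence of binding.

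Values were signal scaled by the authors to the upper quartile, with a 75th percentile of 58.16 in each ROI, and the read totals recovered from the steps of the values ran from 17894 to 2305964 per ROI. Glomerular ROIs were the shallowest, with a median of 95876 reads, while medians elsewhere were 819487 (cortex), 1144390 (junction) and 1309721 (medulla), and the 3 Sham ROIs of plate E held only 17894, 20345 and 41933 reads in glomeruli. Of the 59 members, 36 exceeded 2 times the negative probe, a measure of background, in 90% of ROIs or more, 11 in 50 to 90% and 12 in under 50%. The last 12 were Atp5j2, Atp5mpl, Cox6a1, Cox6a2, Cox7a1, Ndufa5, Ndufa9, Ndufb2, Ndufb8, Sdha, Uqcr10 and Uqcrfs1. Ndufb8 exceeded it in 9.85% of ROIs, missed the filter of 10% and was not tested, so that 58 members were tested among 8827 genes. RefSeq lists pseudogenes under the names of 29 members. Probe sequences were not at hand, so whether a probe also bound near-identical copies was not examined. Area labels were set against markers: 6 of 6 podocyte markers in the table passed the same level in 50% or more of Sham glomerular ROIs and 0 of 6 in cortex (3 of 6 in medulla). The median negative probe in Sham of plate C was 16.7 in glomeruli and 28.3 in cortex. By the test, 5 of these 6 markers were higher in Sham glomeruli than in cortex and 1, Podxl, was lower. The list of loop of Henle markers had 5 of 5 pass it in Sham medulla. In glomeruli 6 of 8 proximal tubule markers passed it too. In such ROIs, fewer cells of a type and less RNA per cell cannot be told apart.

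Members differed from run to run. The median correlation between ROIs of the same run, after the means of group, area and plate were taken out, was 0.512 over the 58 members (from 0.0162 for Atp5g1 to 0.818 for Cox7a2) and 0.119 over the 8827 genes tested. By complex the median was 0.658 for complex V, 0.639 for II, 0.623 for III, 0.417 for IV and 0.398 for I. The tests used the consensus over all genes (0.136), and counts of called members are also given with the members' own median correlation, an alternative chosen after seeing the data.

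The Sham runs themselves differed. The mean log2 signal of the 58 members in cortex was 5.98 in Sham 1 (3 ROIs from 5.93 to 6.03), 6.32 in Sham 2 (6.23 to 6.42) and 6.69 in Sham 3 (6.48 to 6.81), with no overlap between the 3 runs. In medulla it was 6.27, 6.83 and 7.09, again without overlap. Sham 1 was the lowest Sham run for 53 of 58 members in cortex (91.4%, against 30.7% of all genes), 50 at the junction (86.2% against 29%) and 55 in medulla (94.8% against 30.7%), but for 22 in glomeruli (37.9% against 25.9%). The HS runs differed as well: in cortex, HS 3 held 7.46, HS 1 6.47 and HS 2 6.24, and HS 3 was the highest HS run for 55 of 58 members (94.8%, against 30.7% of all genes). Proximal tubule markers ranked the runs in the same way in cortex. The mean log2 signal of 8 of them in cortex was 6.47, 6.74 and 7.39 in Sham 1 to 3 and 6.98, 6.55 and 8.43 in HS 1 to 3. Their part in the differences of the members was not tested. Between the plates, 6 members were higher in Sham of plate E than of plate C in the average of areas and 0 lower (0.43% and 0.385% of all genes; limma over ROIs, some of which share an animal): Atp5b by 1.43, Atp5a1 by 0.97, Atp5c1 by 0.95, Cox7b by 0.90, Cox8a by 0.82 and Atp5k by 0.72 on the log2 scale. With the members' own run correlation 0 were called.

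**Figure D1:**
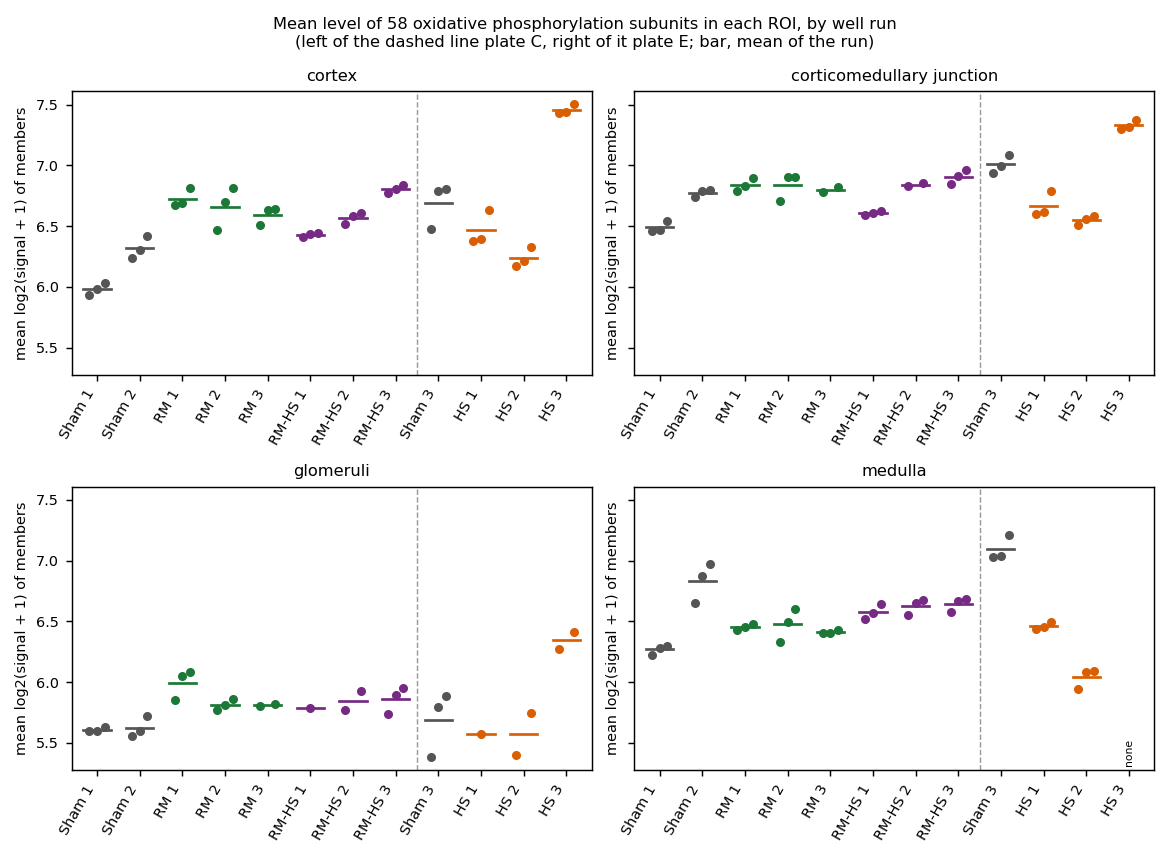
Mean log2(signal + 1) of the 58 tested members in each ROI (points) by well run, in 4 areas, with the mean of each run as a bar and plates C and E to the left and right of the dashed line. In cortex and medulla the 3 Sham runs do not overlap (means from 5.98 to 6.69 and from 6.27 to 7.09), and HS 3 lies above all other runs in cortex, at the junction and in glomeruli.

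Within Sham, areas were compared first, averaging both plates. Members of all complexes were lowest in glomeruli: 52 of 58 were lower than in cortex and 0 higher (37.9% and 3.44% of all genes tested; limma, adjusted p under 0.05 over ROIs, some of which share an animal), with a median log2 change of -0.77 against -0.28 over all genes. At the junction 22 members were higher and 0 lower (6.59% and 1.25% of all genes; median 0.38), and in medulla 27 were higher and 0 lower (6.33% and 5.22%; median 0.48). The glomerular count was 52 with the members' own run correlation, the junction count 28 and the medullary count 34. With 1 mean per run and area the counts were 33, 3 and 5, and medulla kept 15 without Sham 2. Under quantile normalization, which moved the median gene in glomeruli from -0.28 to 0.04, glomeruli had 39 members lower and 0 higher, and the junction 14 higher and 2 lower.

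The medians of the glomerular difference were lowest in complexes II and III, but complexes were not tested against each other. The 3 succinate dehydrogenase subunits were all lower (median -1.26), as were 8 of 8 members of complex III (-0.97), 11 of 12 of complex V (-0.92), 9 of 12 of complex IV (-0.80) and 21 of 23 of complex I (-0.63). Uqcrc2, a core protein of complex III, had signals of 58.2, 85.5 and 108 (lowest, median and highest of 6 ROIs) in Sham cortex of plate C and 33.2, 51.9 and 58.2 in glomeruli. On plate E its 3 cortical ROIs held 151, 156 and 169 and its glomerular ROIs 19.4, 29.1 and 34.9. Cortex exceeded glomeruli on both plates, the groups meeting only at 58.2 on plate C, and the difference was -1.64 ± 0.18 (SE; adjusted p = 5.55e-14). Atp5g3, a c-ring subunit of ATP synthase, differed by -1.46 ± 0.18, Sdhd, a membrane anchor of succinate dehydrogenase, by -1.43 ± 0.16, and Atp5a1, the alpha subunit of ATP synthase, by -1.32 ± 0.20.

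Counts by complex at the junction and in medulla stood as follows. At the junction, complex I had 10 of 23 members called (median 0.39), complex II 2 of 3 (0.49), complex III 2 of 8 (0.41), complex IV 3 of 12 (0.15) and complex V 5 of 12 (0.45). In medulla the calls were 8 of 23 in complex I (0.39), 0 of 3 in complex II (0.07), 6 of 8 in complex III (0.57), 5 of 12 in complex IV (0.42) and 8 of 12 in complex V (0.56). The difference between the complexes was not tested. Succinate dehydrogenase, which is also an enzyme of the citrate cycle, gave -0.21 ± 0.19 for Sdha, 0.07 ± 0.16 for Sdhb and 0.44 ± 0.16 for Sdhd in medulla (adjusted p = 0.568, 0.858 and 0.0667).

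At the junction Atp5b had one of the highest changes. In Sham of plate C it had 71.8, 132 and 236 (lowest, median, highest of 6) in cortex and 252, 350 and 508 at the junction, and on plate E 284, 347 and 460 in cortex against 506, 602 and 698 at the junction. The areas did not overlap on either plate, and the difference was 1.09 ± 0.22 (adjusted p = 5.07e-05). Ndufa4 rose by 1.09 ± 0.21, Atp5a1 by 1.01 ± 0.20 and Uqcr11, a small subunit of complex III, by 0.96 ± 0.16. In medulla Cox7b led, with 162, 264 and 395 against 73, 99.6 and 158 in cortex of plate C, and 456 to 473 (3 ROIs) against 177, 243 and 324 on plate E. Again the areas did not overlap on either plate (difference 1.13 ± 0.17, adjusted p = 7.62e-08). Uqcr11 followed with 1.12 ± 0.16, Ndufs6, an accessory subunit of complex I, with 0.97 ± 0.14, and Cox5a, a subunit of cytochrome c oxidase, with 0.88 ± 0.16.

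**Figure D2:**
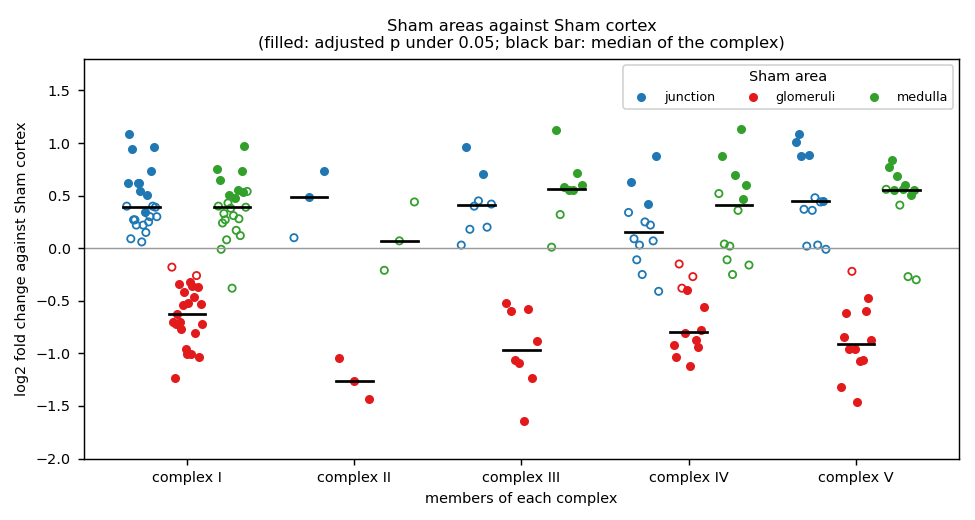
Log2 fold change of each member between a Sham area and Sham cortex, by complex and area (blue junction, red glomeruli, green medulla), with filled points for adjusted p under 0.05 and black bars for the median of the complex. Glomerular points lie below 0 in all complexes (medians from -1.26 to -0.63), while junction and medulla medians lie above 0, with the lowest, 0.07, for complex II in medulla.

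In RM, members were higher in cortex. There, 21 of 58 were higher than in Sham of plate C and 0 lower, where 5.57% and 0.181% of all genes were called (limma, adjusted p under 0.05 over ROIs, some of which share an animal), and the median was 0.50 against -0.07 over all genes. The calls included 7 of 12 members of complex V, 5 of 12 of complex IV, 5 of 23 of complex I, 2 of 3 of complex II and 2 of 8 of complex III. Called members were mostly well detected: 17 of the 36 seen in at least 90% of ROIs were higher, 4 of the 11 seen in 50 to 90%, and 0 of the 11 seen less often. The corresponding shares of all genes were 23.6%, 4.26% and 0.327%. The count fell to 6 with the members' own run correlation, to 1 with 1 mean per run and area, and to 1 without Sham 1. Without Sham 1 the median was 0.33, and against the Sham of plate E it was -0.05 with 0 called.

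Atp5b showed both the rise and the spread. In cortex it held 71.8, 132 and 236 in Sham of plate C (lowest, median, highest of 6) and 234, 333 and 554 in RM (of 9), so that 8 of 9 RM ROIs lay above every Sham ROI. The mean was 84.2 in Sham 1 and 198 in Sham 2, against 280 to 403 in the 3 RM runs and 363 in Sham 3 on the other plate. The difference was 1.41 ± 0.28 (adjusted p = 6.95e-05). Atp5a1 held 88.1, 132 and 184 in Sham and 195, 344 and 511 in RM, a difference of 1.40 ± 0.26 (adjusted p = 2.43e-05). Uqcr11 held 40.2, 49.2 and 80.8 against 89.5, 138 and 143, a difference of 1.21 ± 0.20 (adjusted p = 3e-06). Neither gene overlapped between the groups. Groups did not overlap for 20 of 58 members in cortex, all higher in RM (34.5%, against 6.06% of all genes).

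Other subunits of the respiratory chain rose in RM cortex with them. Cox5a rose by 1.18 ± 0.21 and Cox8a by 1.01 ± 0.19, the latter from 174, 215 and 283 in Sham to 346, 455 and 513 without overlap. Ndufa4 rose by 1.12 ± 0.27 and Atp5c1, the gamma subunit of the ATP synthase rotor, by 1.07 ± 0.26. Sdhb rose by 0.80 ± 0.21, from 75.1, 109 and 153 in Sham to 157, 193 and 253 in RM, also without overlap. The core protein gene Uqcrc2 rose by 0.85 ± 0.22, from 58.2, 85.5 and 108 to 113, 151 and 177. Over all comparisons, 75 of the called changes were followed through the alternatives, and without Sham 1 28 of them were still called. In RM cortex those followed were only Atp5b, Atp5a1 and Uqcr11. Proximal tubule markers moved with the members: the summed signal of 8 markers was 714 to 1187 in Sham cortex of plate C (median 820) and 1071 to 2085 in RM (median 1911). Their part in the rise was not tested.

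RM effects outside cortex were smaller. At the junction 0 members were called, where 4.28% of all genes were called higher and 0.544% lower (median member change 0.20). At an unadjusted p under 0.05, 8 members were higher and 0 lower, against 766 and 344 of all genes tested. The lowest p belonged to Sdhb with 0.63 ± 0.21 (adjusted p = 0.0667). In glomeruli 4 were higher and 0 lower (7.68% and 2.35% of all genes; median 0.25): Atp5b by 1.15 ± 0.28, Atp5a1 by 0.93 ± 0.27, Sdhd by 0.67 ± 0.21 and Sdhb by 0.64 ± 0.21 (adjusted p from 0.00293 to 0.0388). All 4 lost the call with the members' own run correlation, without Sham 1 and without RM 1. The count was 2 without RM 2, 9 without HS 2 and 14 without HS 3. Quantile normalization gave 7 higher and 2 lower there, and 2 were higher and 1 lower without Sham 2. The 4 called members were all among the 36 seen in at least 90% of ROIs, and 19.7% of all genes seen as often were called higher. In medulla 0 members were called, where 4.59% of all genes were called higher and 0.714% lower (median member change -0.09). There, 0 members were higher and 10 lower at an unadjusted p under 0.05, against 768 and 286 of all genes tested. Atp5g1 was at -0.34 ± 0.13 (adjusted p = 0.138). The medullary median was -0.35 without Sham 1, 0.17 without Sham 2 and -0.70 with 15 lower against the Sham of plate E, so that its sign differed with the Sham run used. In these ROIs 5 loop of Henle markers summed to 731 to 1207, below all 6 Sham ROIs (1506 to 3026).

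Averaged over areas, 8 members were higher in RM and 0 lower (7.64% and 0.816% of all genes): Atp5b (0.84 ± 0.20), Atp5a1 (0.72 ± 0.18), Ndufa4 (0.68 ± 0.19), Atp5h, a stalk subunit of ATP synthase (0.60 ± 0.17), Cox5a (0.58 ± 0.15), Sdhb (0.50 ± 0.15), Uqcr11 (0.50 ± 0.14) and Cox8a (0.43 ± 0.13), with adjusted p from 0.000773 to 0.025 in limma over ROIs, some of which share an animal. None was called with the members' own run correlation, with 1 mean per run and area or without Sham 1, and against the Sham of plate E 0 were higher and 1 lower. The count was 4 without RM 1, 15 without HS 2, 24 without HS 3 and 15 without Sham 2. Quantile normalization called 6 higher and 5 lower, with Cox8a at -0.14. Of the 8, 7 were among the 36 members seen in at least 90% of ROIs, and 26.6% of all genes seen as often were called higher. The effect of RM differed between areas for 20 of 58 members (F test over the 4 areas; 6.96% of all genes), and for 20 with the members' own run correlation. It was 5, 11 and 13 without RM 1, RM 2 and RM 3 and 2 without Sham 2. The lowest adjusted p were 0.000276 for Sdhd, 0.000352 for Atp5c1, 0.000729 for Atp5a1 and 0.00137 for Uqcr11. Atp5c1 gave 1.07 ± 0.26 in cortex and Sdhd 0.65 ± 0.21, while in medulla they gave -0.55 ± 0.26 and -0.52 ± 0.21.

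**Figure D3:**
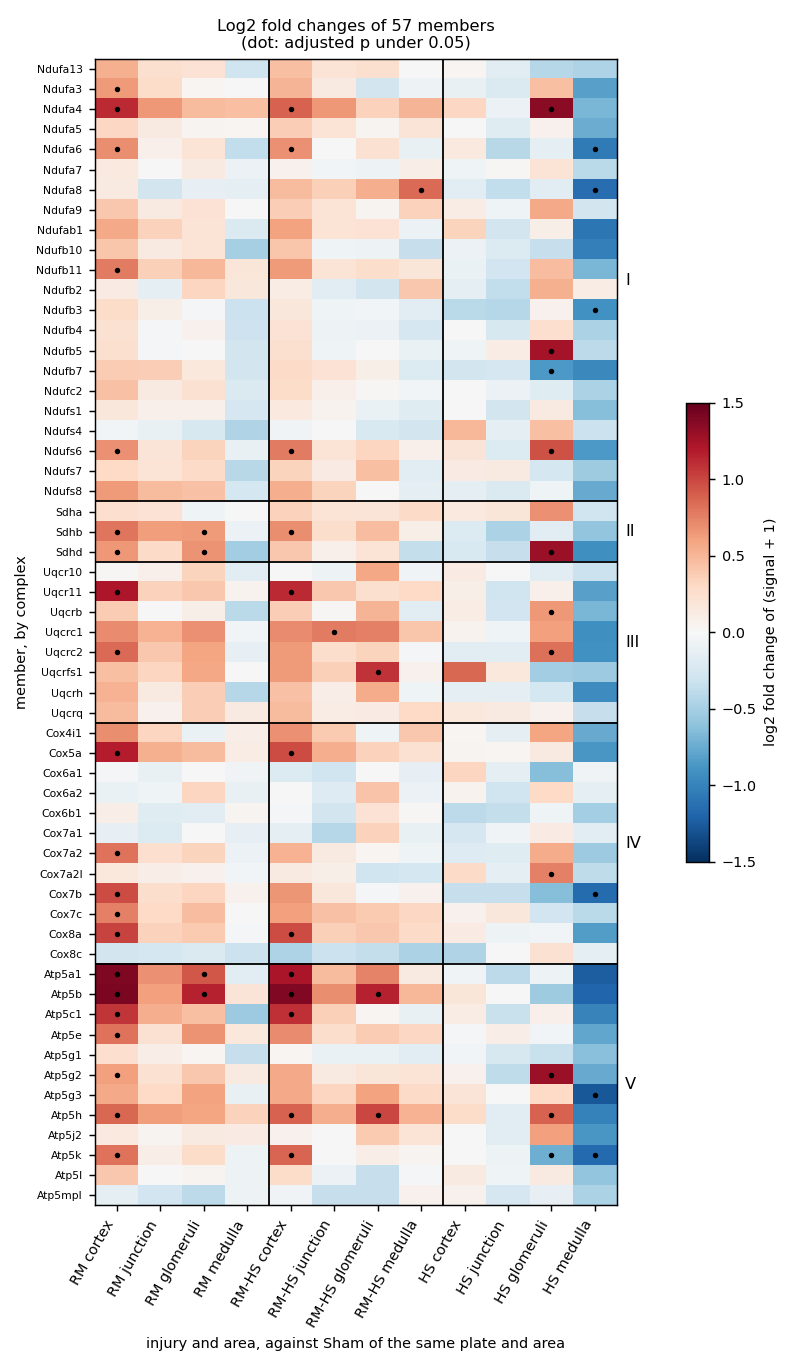
Log2 fold change of 57 of the 58 tested members (rows, by complex) for RM, RM-HS and HS against the Sham of the same plate in 4 areas (columns), with red for higher, blue for lower and a dot for adjusted p under 0.05. The RM and RM-HS cortex columns are mostly red (medians over the 58 tested members 0.50 and 0.45) and the HS medulla column is mostly blue (median -0.69).

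RM-HS was compared with the same Sham ROIs as RM, so that the effects of these groups share their controls. In cortex 12 members were higher and 0 lower (3.91% and 0.159% of all genes; limma over ROIs, some of which share an animal; median 0.45): 5 of 12 in complex V, 3 of 23 in I, 2 of 12 in IV, 1 of 8 in III and 1 of 3 in II. Of the 36 members seen in at least 90% of ROIs 10 were higher, against 16.5% of all genes seen as often. Atp5b held 209, 335 and 575 (lowest, median, highest of 9), so that 6 of 9 ROIs lay above every Sham ROI, and its runs had means of 217, 325 and 541. The difference from Sham was 1.39 ± 0.28 (adjusted p = 0.000157). Atp5a1 held 185, 309 and 468 and was higher by 1.22 ± 0.26. Uqcr11 held 91.1, 112 and 166 and was higher by 1.12 ± 0.20. Neither of the latter overlapped with Sham. In all 8 members did not overlap, 13.8% of those tested against 4.44% of all genes. The count of 12 became 3 with the members' own run correlation, 0 with 1 mean per run and area, 0 without Sham 1, 2 without RM-HS 3, 0 against the Sham of plate E, and 18 higher with 3 lower under quantile normalization. It rose to 18 without HS 2 and to 26 without HS 3. These runs hold no RM-HS or plate C ROI, and the run correlation of the fit was 0.125 and 0.0405 without them. Proximal tubule markers summed to 1048 to 2425 in these cortical ROIs (median 1530).

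At the junction 1 member was higher and 0 lower in RM-HS (4.68% and 0.748% of all genes): Uqcrc1, the other core protein of complex III, with 0.78 ± 0.25 (adjusted p = 0.0453). In glomeruli 3 were higher and 0 lower (3.77% and 1.06%): Atp5b by 1.16 ± 0.30, Uqcrfs1, the Rieske iron-sulfur protein, by 1.08 ± 0.26 and Atp5h, with 12.5, 29.1 and 42.3 in Sham and 37, 56.2 and 63.4 in RM-HS (adjusted p = 0.00842). Glomerular Uqcrfs1 held 7.27, 15 and 23.3 in Sham and 21.1, 29.7 and 58.2 in RM-HS, with overlap, and is among the members near background. These calls were lost with the members' own run correlation and without Sham 1. At the junction the call was also lost without Sham 3, any RM run, RM-HS 2 or RM-HS 3, and 4 were called without HS 3. In glomeruli 5 were called without HS 2 and 9 without HS 3, and quantile normalization gave 1 higher and 3 lower at the junction and 7 higher and 1 lower in glomeruli.

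Ndufa8, an accessory subunit of complex I, was the only member called in RM-HS medulla. It held 36.2, 42.7 and 55.2 in Sham of plate C (lowest, median, highest of 6), 22.5, 50.8 and 56.3 in RM (of 9) and 66.3, 80.7 and 96.1 in RM-HS (of 9). RM-HS lay above every Sham and RM ROI of the plate, while RM and Sham overlapped. RM-HS exceeded Sham by 0.85 ± 0.21 (adjusted p = 0.00329) (3.29% of all genes called higher and 0.589% lower), and exceeded RM by 0.98 ± 0.19 (adjusted p = 0.000375; 0.215% and 0.385% of all genes). Averaged over areas it exceeded RM by 0.66 ± 0.13 (adjusted p = 0.00318), again as the only member called (0.068% and 0.17% of all genes; limma over ROIs, some of which share an animal). The 3 Sham ROIs of plate E held 79.8, 83.7 and 86.7, within the RM-HS range, and against them RM-HS gave -0.04. All 3 calls were lost with the members' own run correlation and with 1 mean per run and area. The call against Sham was also lost without Sham 1 and without RM-HS 3, and that against RM in the average of areas without RM 3, RM-HS 1 or RM-HS 3. Without Sham 2, 3 members were called higher in RM-HS medulla. Between RM-HS and RM, limma called 0 members in cortex, at the junction and in glomeruli. In cortex 0 members were higher and 2 lower at an unadjusted p under 0.05, against 19 and 90 of all genes tested. These counts were 1 and 0 against 164 and 119 at the junction, and 4 and 3 against 734 and 751 in glomeruli.

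Averaged over areas, RM-HS had 11 members higher and 0 lower (6.14% and 0.85% of all genes): Atp5b by 0.94 ± 0.20, Atp5h by 0.74 ± 0.17, Uqcrc1 by 0.67 ± 0.18, Atp5a1 by 0.64 ± 0.19, Ndufa4 by 0.60 ± 0.19, Ndufa8 by 0.56 ± 0.15, Uqcrfs1 by 0.54 ± 0.17 and Cox5a by 0.52 ± 0.15, with Uqcr11, Cox8a and Cox7c. None of the 11 was called with the members' own run correlation, with 1 mean per run and area or without Sham 1, 6 were without RM-HS 2, 3 without RM-HS 3 and 20, with 1 lower, without HS 3. Quantile normalization called 9 higher and 6 lower. Of the 11, 6 were among the 36 members seen in at least 90% of ROIs, and 19.2% of all genes seen as often were called higher. The effect differed between areas for 3 members by the F test (5.17% of members, against 5.55% of all genes): Atp5c1, Atp5k and Uqcr11 (adjusted p = 0.0153, 0.0174 and 0.0261). The count was 12 with the members' own run correlation and 14 with well run as a fixed term. It was 1 without RM-HS 3, Sham 1 or Sham 2, 6 without Sham 3, 7 without HS 2 and 10 without HS 3.

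HS was compared with the 3 Sham ROIs of plate E in each area, which all belong to the run Sham 3. An HS effect therefore cannot be told apart from the level of that run. In medulla Sham 3 was the highest Sham run for 52 of 58 members (89.7%, against 29% of all genes). Members were lower in HS medulla: 57 of 58 had a negative change, with a median of -0.69 against -0.03 over all genes, and 47 did not overlap with Sham, where 6.41% of all genes did not and were lower. By the test, 6 members were called lower and 0 higher (0.238% and 0.034% of all genes; limma over ROIs, some of which share an animal): Atp5g3 (-1.27 ± 0.30), Atp5k (-1.17 ± 0.27), Cox7b (-1.16 ± 0.29), Ndufa8 (-1.14 ± 0.28), Ndufa6 (-1.06 ± 0.26) and Ndufb3 (-0.91 ± 0.21), with adjusted p from 0.0136 to 0.0418. None of the 6 was called with the members' own run correlation. Medians by complex were -0.94 for V, -0.75 for III, -0.69 for I, -0.59 for II and -0.46 for IV.

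Cox7b held 94.5, 185 and 226 in the 6 HS medullary ROIs (lowest, median, highest) against 456 to 473 in the 3 Sham ROIs of plate E. Atp5g3 held 72.7, 144 and 202 against 339, 383 and 388, and Atp5k 50.9, 101 and 127 against 204, 234 and 253. No HS ROI reached a Sham ROI of the plate for any of the 3 genes. The Sham ROIs of plate C lay between or within, with 162, 264 and 395 for Cox7b and 89.4, 146 and 219 for Atp5k. Against plate C the median member change was -0.15 and 0 members were called. Atp5b gave -1.19 ± 0.37 and Atp5a1 -1.24 ± 0.35, without a call (adjusted p = 0.23 and 0.106).

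The HS medullary count depended on the runs. No medullary ROI belonged to HS 3. HS 2 held the lower values (mean log2 of members 6.04, against 6.46 in HS 1 and 7.09 in Sham 3) at 66598 to 138976 reads, the lowest of the medullary runs, and without HS 2 the median was -0.44 with 0 called. Without HS 1 it was -0.73 with 14 called, and without HS 3 -0.92 with 37. Leaving out HS 3 removed no medullary value, so that this change came through the fit, whose run correlation was then 0.0405. The plain means of the members over ROIs were 6.25 in HS medulla and 7.09 in Sham medulla of plate E. With 1 mean per run and area 0 were called. Loop of Henle markers moved with the members: 5 of them summed to 1083 to 1631 in HS medulla and 2985 to 3535 in Sham of plate E. Their part in the fall was not tested. In RM-HS and RM medulla these markers summed to 1178 to 1528 and 731 to 1207, against 1506 to 3026 in Sham of plate C, and the member medians were 0.03 and -0.09.

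**Figure D4:**
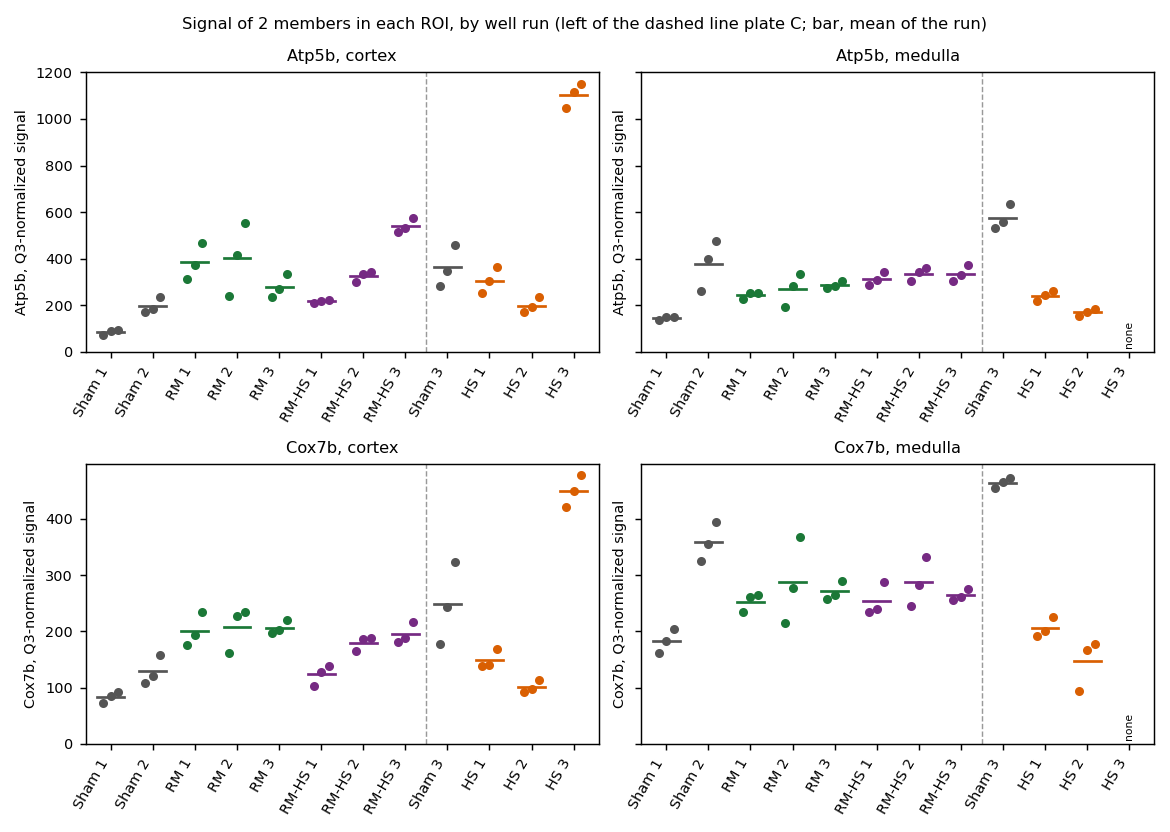
Q3-normalized signal of Atp5b and Cox7b in each ROI of cortex and medulla by well run, with run means as bars and plate C left of the dashed line. Atp5b in cortex rises from means of 84.2 and 198 in Sham 1 and 2 to 280 to 403 in RM, with 1105 in HS 3, and Cox7b in medulla is 146 and 206 in HS 2 and HS 1 against 465 in Sham 3.

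In HS cortex and at the junction 0 members were called (0.0566% and 0.125% of all genes higher, 0.0227% and 0.068% lower). The member medians were 0.03 and -0.16. At an unadjusted p under 0.05, 2 members were higher and 1 lower in cortex, against 151 and 143 of all genes tested. The junction had 0 higher and 1 lower, against 127 and 149. Atp5b in cortex held 169, 303 and 1148 (lowest, median, highest of 9) in HS and 284, 347 and 460 in Sham of plate E, with overlap and a difference of 0.18 ± 0.35. The 3 ROIs of HS 3 averaged 1105, against 306 in HS 1 and 199 in HS 2. Without HS 3 the cortical median was -0.35 with 2 members lower, and without HS 2 it was 0.28 with 1 higher. The lowest p in cortex belonged to Uqcrfs1 (0.86 ± 0.30) and at the junction to Ndufb3 (-0.43 ± 0.20), both with an adjusted p of 1. Averaged over areas 0 members were called (0.147% of all genes higher and 0.0453% lower). In this average 0 were higher and 10 lower at an unadjusted p under 0.05, against 225 and 273 of all genes tested. Cox7b was at -0.62 ± 0.20, Ndufb7 at -0.59 ± 0.17, Atp5k at -0.50 ± 0.18 and Ndufb3 at -0.42 ± 0.14. Without HS 3, 31 were called lower and the median moved from -0.13 to -0.45, and without HS 2 it was 0.06.

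HS glomeruli gave 9 members higher and 2 lower (15.5% and 3.45% of members, against 9.87% and 9.6% of all genes), from 5 HS ROIs and 3 Sham ROIs of 17894 to 41933 reads. Of the 36 members seen in at least 90% of ROIs, 7 were higher and 2 lower, against 20.2% and 5.6% of all genes seen as often. Ndufa4 rose by 1.35 ± 0.37, Atp5g2, another c-ring gene, by 1.30 ± 0.26 and Sdhd by 1.29 ± 0.28, while Ndufb7 fell by 0.86 and Atp5k by 0.73 (limma over ROIs, some of which share an animal). Sdhd held 19.4, 29.1 and 93.1 in the Sham ROIs and 58.2 to 174 in HS, with overlap. None was called with a spread estimated for each area or with the members' own run correlation, and subtracting the negative probe gave 23 higher and 2 lower. Without HS 3 the counts were 7 higher and 10 lower, and without RM 3 6 and 1. The F test over areas called 23 members in HS (15.3% of all genes), with Atp5g2, Sdhd, Ndufs6 and Ndufb5 lowest, and it includes these shallow glomeruli. It called 24 with the members' own run correlation.

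The effects of HS and RM were then compared, each against its own plate's Sham. Averaged over areas, 6 members differed, all lower under HS (2.44% of all genes, and 0.147% higher; median difference -0.35): Atp5b by -1.23 ± 0.32, Atp5a1 by -1.16 ± 0.30, Cox7b by -1.03 ± 0.25, Sdhb by -0.85 ± 0.24, Atp5k by -0.78 ± 0.23 and Ndufb7 by -0.75 ± 0.22 (adjusted p from 0.00602 to 0.0393; limma over ROIs, some of which share an animal). In cortex 2 members were lower and 0 higher (1.04% and 0.0566% of all genes), Cox7b and Cox7a2, a further small oxidase subunit (-1.33 ± 0.35 and -1.01 ± 0.27). In medulla 2 were lower and 0 higher (1.99% and 0.0566%), Atp5h and Cox7b (-1.36 ± 0.40 and -1.23 ± 0.36). Of the 36 members seen in at least 90% of ROIs, 6 were lower in the average, 2 in cortex and 1 in medulla. The shares of all genes seen as often that were lower were 10.3%, 4.88% and 6.9%. In glomeruli 1 was higher and 3 lower (6.15% and 7.74% of all genes), with the shallow Sham ROIs of plate E. Against RM-HS, the HS effect was lower in medulla for 6 members and higher for 0 (1.05% and 0.0227% of all genes), led by Ndufa8 (-1.99 ± 0.34), Atp5b (-1.69 ± 0.46), Atp5g3 (-1.56 ± 0.37) and Atp5h (-1.54 ± 0.40). With the members' own run correlation 0 differences of the HS effect from the RM or the RM-HS effect were called, in the average or in any area. In the average of areas and in medulla, 0 of the differences from RM were called without HS 2 or without Sham 1. Without HS 3 there were 41 and 26, without HS 1 2 and 7, without RM 1 2 and 0, without RM 3 3 and 1, and in medulla 11 without Sham 2 and 0 without RM 2 or any RM-HS run. The Sham of plate E, which enters each HS effect, had more member signal than that of plate C in the 3 areas other than glomeruli.

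Among the members with the highest signal, others were followed through RM cortex and HS medulla, where differences between members were not tested. Cox7a2 held 160, 216 and 258 in Sham cortex of plate C and 330, 356 and 446 in RM (0.82 ± 0.17, adjusted p = 0.000119), and in HS medulla 244, 306 and 344 against 450, 496 and 575 in Sham of plate E, without a call (-0.54 ± 0.22, adjusted p = 0.673). Ndufb3, an accessory subunit of complex I, held 116, 145 and 173 in Sham cortex and 135, 177 and 198 in RM, with overlap and no call (0.27 ± 0.16, adjusted p = 0.573), and in HS medulla 105, 121 and 148 against 232, 253 and 266, where it was called (-0.91 ± 0.21, adjusted p = 0.0181). Of these 4 comparisons, groups overlapped only for Ndufb3 in cortex. Uqcrh, the hinge subunit of complex III, gave 0.52 ± 0.21 in RM cortex and -0.94 ± 0.27 in HS medulla, and Atp5l, subunit g of ATP synthase, gave 0.40 ± 0.14 and -0.59 ± 0.19, all 4 without a call (adjusted p = 0.158, 0.149, 0.0887 and 0.274).

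The muscle isoforms stayed near background: Cox6a2 and Cox7a1 exceeded 2 times the negative probe in 20.5% and 16.7% of ROIs. In RM cortex they changed by -0.10 ± 0.23 and -0.12 ± 0.21, in RM-HS cortex by 0.00 ± 0.23 and -0.14 ± 0.21, and in HS medulla by -0.13 ± 0.30 and -0.17 ± 0.28, without a call. Cox7a1 was lower in Sham glomeruli than in cortex (-0.40 ± 0.17, adjusted p = 0.0427). Cox8c, the testis isoform, exceeded that level in 53% of ROIs. In medulla of plate C it held 54.4, 58.7 and 75.4 in Sham (lowest, median, highest of 6), 38.8, 49.2 and 53.2 in RM (of 9) and 34.9, 45.1 and 50.9 in RM-HS (of 9). Both injuries lay below every Sham ROI of the plate. In all, 3 members did so in RM medulla and 2 in RM-HS medulla, and 2.85% and 2.44% of all genes. Neither difference of Cox8c was called (-0.32 ± 0.29 and -0.47 ± 0.29, adjusted p = 0.803 and 0.798), and the 3 Sham ROIs of plate E held 46.4, 51.1 and 52.1. Members seen in under 50% of ROIs had a median of 0.12 in RM cortex, against -0.14 over all genes seen as rarely, of 0.07 against -0.07 in RM-HS cortex and of -0.30 against 0.01 in HS medulla.

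Other mitochondrial genes were counted in the same way. In RM cortex 5.57% of all genes were called higher and 0.181% lower. Of 52 tested mitochondrial ribosomal proteins 0 were called there (median 0.01), and of 31 assembly factors 0 (median -0.12). Among 13 carriers and pores 4 were higher and 0 lower (median 0.38). Of the 18 genes of the citrate cycle and pyruvate oxidation 1 was higher (median 0.32), and among 23 genes of import, cristae and protein quality 3 were higher (0.25). In the average of areas under RM, 7.64% of all genes were called higher and 0.816% lower. There, Hspe1 and Hspa9, chaperones of the mitochondrial matrix, rose by 0.86 ± 0.17 and 0.58 ± 0.14. Lonp1, a matrix protease, rose by 0.49 ± 0.17, and Slc25a3, the phosphate carrier that supplies ATP synthase, by 0.45 ± 0.15. Among 13 regulators Esrrg, an estrogen-related receptor, fell by 0.36 and Ssbp1, a mitochondrial DNA-binding protein, by 0.31. Under RM-HS, Cox17, a copper chaperone of complex IV, rose by 0.39 ± 0.13. Under HS 0 genes of these lists were called in the average (0.147% of all genes higher and 0.0453% lower). In HS medulla Timm8b, of the import machinery, fell by 1.11, where 0.238% of all genes were called lower. In Sham glomeruli against cortex, where 37.9% of all genes were lower and the median gene was at -0.28, 17 of 18 citrate cycle genes were lower (median -0.75), 10 of 13 carriers (-0.51), 16 of 23 import genes (-0.50), 26 of 52 ribosomal proteins (-0.39) and 15 of 31 assembly factors (-0.35), with 0 higher in these lists. Of the 13 regulators 5 were lower and 1 higher (-0.17). At the junction, where 6.59% of all genes were higher, 6 of 52 ribosomal proteins and 0 of 18 citrate cycle genes were higher (0.11 and 0.10). In medulla, where 6.33% of all genes were higher and 5.22% lower, 4 citrate cycle genes were higher and 3 lower (-0.12).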

How the data were processed

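GeoMx whole-transcriptome signal was measured in 132 ROIs of rat kidney with a mouse probe set, per the labels' protocols. The deposited values are signal, scaled by the authors to the upper quartile of each ROI. GRCh38 and hg38 are the builds named in the submitters' processing notes. Their role for rat tissue is not stated there. Reads per ROI (17894 to 2305964) were read from the whole steps of the values and set the precision of low genes.

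The 8827 of 9271 genes that exceeded 2 times the negative probe in 10% of ROIs or more were tested on log2(signal + 1) with limma 3.58.1 and statmod 1.5.0 in R 4.3.3: 20 means of condition, area and plate, well run as a random block (correlation 0.136), empirical Bayes with trend, two-sided, Benjamini-Hochberg adjustment over all 8827 genes, threshold 0.05. Fold changes on the log2(signal + 1) scale understate those of low genes. The script was tested on simulated data. Nothing in the labels says which ROIs are separate animals. p-values therefore measure the spread between ROIs and runs.

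Members and gene lists were chosen with earlier results of these data known. Members named with values were the 2 with the highest signal in each complex, the largest called changes of each comparison, the lowest p of each F test and difference of effects, and isoforms of limited tissue range. Cox5a, Cox8a, Ndufa4, Atp5c1, Sdhb and Uqcrc2 in RM cortex and Cox8c in medulla were chosen after their values were seen. Alternatives changed the pseudocount, filter, normalization, background, plate, unit of analysis and runs included. Promoters came from RefSeq (GRCr8). Values of 1 member and of 1 gene of the other lists are not reported here, although both entered the counts and medians. Plots used matplotlib 3.10.9.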

Additional observations from a re-analysis of the deposited data

Results flagged for a closer look

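Single ROIs stood apart from their group in 2 measures. At the RM junction the mean log2 signal of complex V was 7.08 in 1 ROI of RM 2, below the next of 7.27 (8 ROIs). In Sham glomeruli of plate C the mean of complex III was 5.22 in 1 ROI of Sham 2, above the next of 4.98 (6 ROIs). These were 2 of 96 measures in 16 groups, and chance alone gives about 1 in 20.

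The effect of an injury differed between areas for members with these adjusted p of limma's F test: under RM, Sdhd (0.000276), Atp5c1 (0.000352), Atp5a1 (0.000729) and Uqcr11 (0.00137). Under RM-HS, where 5.17% of members and 5.55% of all genes were called, they were Atp5c1 (0.0153), Atp5k (0.0174) and Uqcr11 (0.0261). Under HS they were Atp5g2 (6.62e-07), Sdhd (1.21e-06), Ndufs6 (3.84e-06) and Ndufb5 (2.74e-05).

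Effects also differed between injuries by limma's adjusted p. RM-HS exceeded RM for Ndufa8 in the average of areas (0.00318) and in medulla (0.000375). The HS effect was below the RM effect in the average for Cox7b (0.00602), Atp5a1 (0.0119), Atp5b (0.0119) and Sdhb (0.0277), in cortex for Cox7a2 (0.0274) and Cox7b (0.0288), and in medulla for Atp5h (0.0471) and Cox7b (0.0481). In glomeruli it was above it for Ndufb5 (0.00279) and below it for Atp5b (0.00846), Ndufb7 (0.0218) and Atp5k (0.0313). The HS effect was below the RM-HS effect in the average for Ndufa8 (0.00672), Atp5b (0.00979) and Atp5a1 (0.0431), and in medulla for Ndufa8 (4.66e-05), Atp5g3 (0.00899), Atp5h (0.0239) and Atp5b (0.0361). In glomeruli it was above it for Ndufb5 (0.00276) and Atp5g2 (0.0155) and below it for Uqcrfs1 (0.00435) and Atp5b (0.0098). There, 6.9% of members were called higher and 5.17% lower, near the 5.82% and 6.98% of all genes. Both glomerular comparisons rest on the shallow Sham ROIs of plate E. HS lies on plate E and the other injuries on plate C, so that each of these differences also takes in both sets of Sham.

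The RM glomerular ROI on plate A, outside all comparisons, had a mean log2 signal of 5.76 over the tested members at 70977 reads. The Sham glomeruli of plate C held 5.55 to 5.72, those of plate E 5.38 to 5.89, and the RM glomeruli of plate C 5.77 to 6.08.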

How the results depend on the processing

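The precision of these results is limited by 3 Sham ROIs per area on plate E, by shallow glomeruli, and by runs that cannot be tied to animals. Counts of called members below are given by comparison. A pseudocount of 5 and no filter on low values kept all 75 called changes that were followed, which are part of those named, and moved no count by over 1.5 times. No paired analysis was possible because the labels give no replicate numbers that injury and Sham share. Areas share well runs, and with well run as a fixed replicate block the Sham counts were 28, 52 and 34 at the junction, in glomeruli and medulla, and those of the F tests 20, 14 and 22 for RM, RM-HS and HS. The count-based alternative on recovered reads was not run, and without Sham 3 the HS comparisons and the Sham areas could not be estimated. Area weights, the fixed block, the members' own run correlation and the Sham of the other plate were chosen after seeing the data. Except where the construction shows it (fewer ROIs, or 1 value per run), the cause of a change was not tested.

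With 1 mean per well run and area the counts were 0 for RM, RM-HS and HS medulla, for RM glomeruli and RM in the average, 1 for RM cortex, 0 for RM-HS in the average and in each area, 5 for HS glomeruli, 0 for RM-HS against RM and for HS against RM effects (average and medulla), 0, 0 and 3 for the F tests of RM, RM-HS and HS, and 3, 33 and 5 for Sham junction, glomeruli and medulla. With the members' own run correlation they were 6 for RM cortex, 3 for RM-HS cortex, 12 for the RM-HS F test, and 0 for RM in the average and in glomeruli, for RM-HS in the average, junction, glomeruli and medulla, for HS glomeruli and medulla, for RM-HS against RM and for HS against RM effects. With area weights they were 1, 3, 0 and 7 for RM in the average, junction, glomeruli and medulla, 2, 24, 3 and 0 for RM-HS in the average, cortex, junction and glomeruli, 0 and 30 for HS glomeruli and medulla, 0 for RM-HS against RM, 0 and 16 for HS against RM effects in the average and medulla, 12 for the RM-HS F test, and 36, 32 and 42 for the Sham areas.

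Against the Sham of the other plate the counts were 1, 0, 10 and 15 for RM in the average, cortex, glomeruli and medulla, 2, 0, 0, 11 and 4 for RM-HS in the average, cortex, junction, glomeruli and medulla, and 11, 25 and 0 for HS in the average, cortex and medulla. Of 38 called changes that could be recomputed 3 were kept, 15 lost and 20 turned. In the RM average Atp5b became -0.59, Atp5a1 -0.25, Atp5h -0.03, Cox5a -0.01, Uqcr11 -0.07, Sdhb -0.07 and Cox8a -0.39. Atp5b became -0.06 in RM cortex and -1.04 in RM glomeruli. In the RM-HS average Atp5b became -0.50, Uqcrc1 -0.11, Atp5a1 -0.33, Uqcrfs1 -0.00 and Cox5a -0.06. In RM-HS cortex Atp5b became -0.08 and Atp5a1 -0.00, in glomeruli Atp5b -1.03 and Uqcrfs1 -0.12, and in medulla Ndufa8 -0.04. In HS glomeruli Atp5k became 0.30.

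Under quantile normalization the counts were 3, 9 and 16 for RM junction, glomeruli and medulla, 21, 4, 8 and 5 for RM-HS cortex, junction, glomeruli and medulla, 2 and 17 for HS in the average and medulla, and 16 for the RM-HS F test, and Cox8a in the RM average became -0.14. With a plate term they were 2, 17 and 2 for RM junction, glomeruli and medulla, 2 and 8 for RM-HS junction and glomeruli, 2 for HS glomeruli, 4 for HS against RM effects in medulla and 7 for the RM-HS F test. With the negative probe subtracted they were 14 for RM in the average, 0 for RM-HS junction and medulla, 1, 25 and 1 for HS in the average, glomeruli and medulla, 0 for HS against RM effects in medulla and 9 for the RM F test.

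Leaving out 1 run at a time, counts ranged from 0 to 24 for RM in the average, 1 to 30 in cortex, 0 to 5 at the junction, 0 to 14 in glomeruli and 0 to 3 in medulla. For RM-HS they ranged from 0 to 21, 0 to 26, 0 to 4, 0 to 9 and 0 to 3 in the same order, and for HS from 0 to 31, 0 to 2, 0 to 0, 7 to 17 and 0 to 37. They ranged from 0 to 1 for RM-HS against RM, from 0 to 41 and 0 to 26 for HS against RM effects in the average and medulla, from 2 to 21, 1 to 10 and 18 to 31 for the F tests of RM, RM-HS and HS, and from 16 to 26, 40 to 52 and 15 to 33 for Sham junction, glomeruli and medulla.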
